A study of Mus musculus with 6 samples.

Results

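Granulosa cells of ovaries with a conditional knockout of the kinases ERK1 and ERK2 were compared 2.5 h after human chorionic gonadotropin (hCG) and without hCG. These were 2 of the 6 arrays in the series, 1 array a side. All groups came from immature mice, 23 days of age. Follicles had been grown for 48 h under 5 IU of eCG, the equine gonadotropin with FSH-like action. The hCG groups then received 5 IU of hCG, which acts on the luteinizing hormone receptor. The knockout mice lacked ERK1 and carried ERK2 fl/fl with Cyp19CRE, a Cre recombinase driven by the aromatase gene, so ERK2 was removed only in cells that had turned that gene on. The other arrays were wild type without hCG, wild type at 2.5 h and 4 h, and knockout at 4 h. With 1 array in each group, there is no replicate error and no test, and the labels do not say whether animals were pooled.

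The arrays reported one probe set per gene for 18194 genes. A gene was counted when the brighter of both knockout arrays had an intensity of 64 or more, a floor just above the median of each array, which left 11355 genes. At 2.5 h, 388 of these were higher by 2-fold or more, 428 were lower by 2-fold or more, and 10539 differed by less. These are the genes called higher or lower below, and the background shares were 3.42% and 3.77% of the 11355 genes. Rerg and Sox7 lay just inside the rule at 2.0-fold higher, and Wwp1 (1.99-fold) and Ptpn9 (1.99-fold) just outside it. On the lower side Efhc2 and Ccdc181 were inside at 2.0-fold, and Prkag2 (just under 2-fold) and Lrrc8d (1.99-fold) just outside. Under 2.5-fold were 146 of the 388 higher genes (37.6%) and 292 of the 428 lower ones (68.2%). Of the higher genes 65 (16.8%) began under the floor, and 46 of the lower ones (10.8%) were under it at 2.5 h. Such genes were counted, also in the lists below, only through the array where they were brighter. Another probe set over the floor existed for 184 higher and 147 lower genes, and it was also past 2-fold in 126 (68.5%) and 77 (52.4%). At the far end 97 genes were at least 4-fold higher, 29 at least 8-fold and 12 at least 16-fold, whereas 6 were at least 4-fold lower.

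The defining genes of granulosa cells were bright on both knockout arrays. Inha and Inhba, the inhibin and activin subunits, were at 28064 and 25350 without hCG and at 33651 and 34135 at 2.5 h. Foxl2, the transcription factor of granulosa identity, was at 3890 and 3703. None of 11 granulosa markers over the floor was called in either direction. Probe sets for the transcripts of ERK1 and ERK2 were not analysed here, and the deletion itself therefore has no check from these arrays. RNA integrity was read from Gapdh, whose 3′ probe set was brighter than its 5′ one by a factor of 5.21 on the knockout array without hCG and 3.99 at 2.5 h. For Actb the factor was 3.30 and 3.11.

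The luteinizing hormone receptor couples to the G protein that activates adenylyl cyclase. The cyclic AMP (cAMP) formed releases the catalytic subunits of protein kinase A, which phosphorylate CREB and related factors bound at cAMP response elements. In preovulatory follicles a second arm follows, in which EGF-like ligands released by granulosa cells act on the EGF receptor and so switch on ERK1 and ERK2. The knockout arrays show the transcripts that differed after hCG in cells labelled as lacking the kinases of that arm.

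Genes of the cAMP response had some of the largest differences in knockout cells. Crem, whose inducible form is a repressor of the cAMP response, was at 97 without hCG, 3940 at 2.5 h and 1088 at 4 h. The wild type arrays gave 103, 3886 and 2316 at these times. The knockout level was thus 40.6-fold higher at 2.5 h, against 37.7-fold in wild type, and another probe set of Crem gave a log2 difference of 4.93 in knockout. Nr4a1, an orphan nuclear receptor that cAMP induces in steroid-forming cells, was at 346, 7241 and 7336 in knockout at the 3 times and at 812, 6344 and 2192 in wild type. At 2.5 h both genotypes stood at like levels, while at 4 h the knockout array kept the 2.5 h level and the wild type array was lower. Nr4a2, its relative, went from 68 to 308 in knockout and from 125 to 482 in wild type, whereas Nr4a3 was at 276 and 249 in knockout.

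Of 27 genes on a list of cAMP and CREB targets, 23 were over the floor. This list, like the other lists, was chosen with earlier results of these data known. In knockout 12 of the 23 were called higher and 1 lower, with a median log2 difference of 1.32, beside -0.03 over all 11355 genes. In wild type 14 of the same 23 genes passed the 2-fold rule upward and 0 downward, with a median of 1.29 beside -0.22 over the same 11355 genes. The wild type background was 3.54% higher and 1.03% lower. Besides Crem, Nr4a1 and Nr4a2, the higher genes in knockout were Pde4d, Pde4b, Per2, Btg2, Atf3, Rasd1, Ier2, Sgk1 and Gadd45b. The antiproliferative gene Btg2 went from 248 to 1344 in knockout and from 351 to 1854 in wild type. Sgk1, a kinase of the AKT type, went from 592 to 1641 and from 1121 to 4061. The list held genes that did not pass the rule: Rgs2, an inhibitor of Gq signalling, was at 13988 and 16226, Per1 at 357 and 577 and Fos at 1118 and 1293. Fos in wild type was at 2660 and 5241. Against the wild type array without hCG the median of the list was 0.78.

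**Figure D1:**
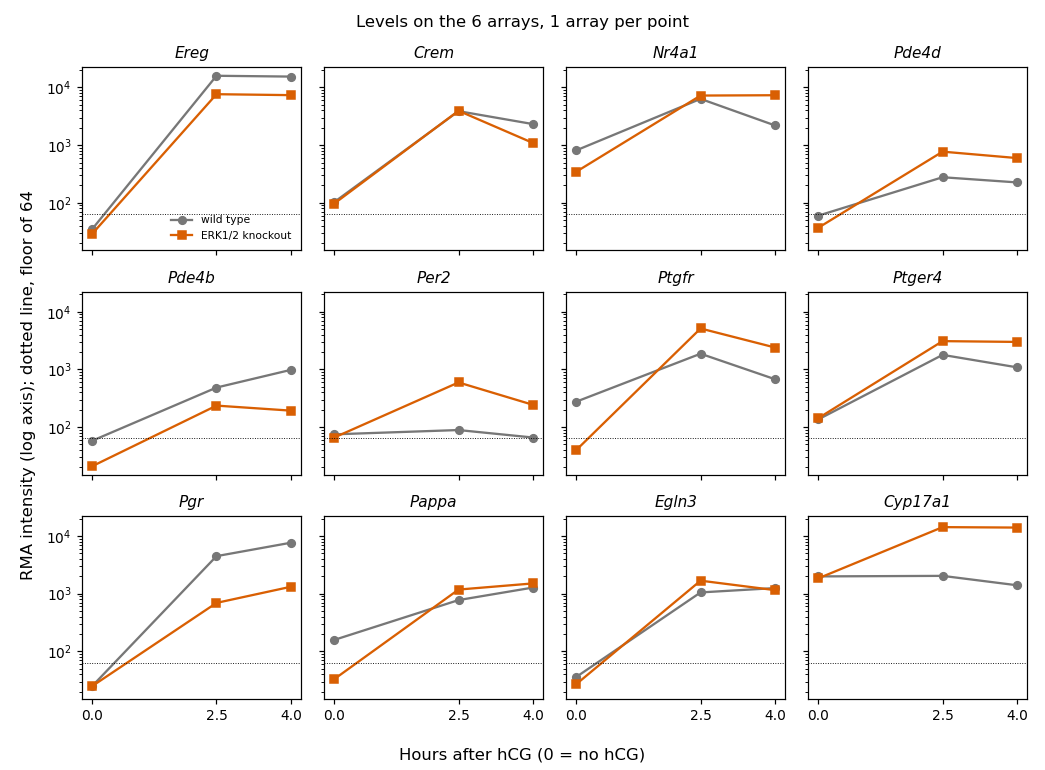
RMA intensity (log axis) of 12 genes against hours after hCG, with 1 array per point, grey circles for wild type and orange squares for knockout; the dotted line marks the floor of 64. The lines of Crem meet at 2.5 h (3940 in knockout and 3886 in wild type), Cyp17a1 and Per2 are high only on the knockout arrays after hCG, and Pgr is higher after hCG in both genotypes but lower in knockout.

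The only cAMP list member called lower in knockout was Gem, a small GTPase that restrains calcium channels. It was at 485, 216 and 171 in knockout and at 498, 1218 and 1014 in wild type at the 3 times. It was 2.25-fold lower in knockout at 2.5 h and 2.45-fold higher in wild type.

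Enzymes that degrade cyclic nucleotides were part of the knockout response. Pde4d, a cAMP phosphodiesterase, was at 37 in knockout without hCG, 772 at 2.5 h and 597 at 4 h, and at 60, 278 and 226 in wild type. The knockout difference was 20.9-fold and that of wild type 4.63-fold. The next brightest probe set of Pde4d, under the floor, gave a log2 difference of -0.11 in knockout. Pde4b, its close relative, went from 21 to 236 in knockout and from 58 to 485 in wild type, and its second probe set, under the floor, gave a log2 difference of 1.36 in knockout. Pde8a, a high-affinity cAMP phosphodiesterase, went from 2023 to 4140 in knockout, and Pde10a from 198 to 397. Of 13 measured phosphodiesterases these 4 were called higher and 0 lower (median 0.16), and 3 were at least 2-fold higher in wild type.

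Upstream components of the pathway were mostly level. Of 25 genes from G protein to coactivator, 2 were called higher and 1 lower in knockout, with a median of -0.19. Prkar1a, the regulatory subunit that holds protein kinase A inactive, went from 1563 to 3909 (2.50-fold), and Pkia, an inhibitor peptide of the same kinase, from 104 to 214. Adcy9, an adenylyl cyclase, was 2.79-fold lower, at 2910 and 1044. The kinase subunit Prkaca was at 895 and 897, and Creb1 at 1272 and 892. Prkar1a, Pkia and the phosphodiesterases are known to restrain cAMP signalling. Lhcgr, the hormone's own receptor, was not analysed here.

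Promoters of the higher genes were searched for the full cAMP response element TGACGTCA, which reads the same on both strands, and for its short form TGACG or, on the other strand, CGTCA, which lies within the full element. Each window ran from 250 bases before to 50 after an annotated RefSeq start (GRCm38.p6), and a gene with several starts counted when any window matched. Windows were found for 312 of the 388 higher genes and for 9217 of the 11355 genes over the floor. The full element was present in 24 of the 312 (7.69%), in 339 of the 9217 (3.68%) and in 1.79% of all 32851 windows of the table. It was present in 8 of 73 genes at least 4-fold higher (10.96%) and in 5 of 333 lower genes (1.5%). Among higher genes the share was 8.56% where the wild type response lay within 2-fold and 7.92% where the knockout response was larger. Where it was smaller the count was 0 of 24, which with so few genes cannot be told apart from the 3.68% share. The short form was present in 40.4% of higher genes, 35.7% of genes over the floor and 27.6% of lower genes. In the 24 genes with a smaller knockout response its share was 37.5%. Of all windows 20.8% held it. The shares of all windows count windows, whereas a gene with several windows has more chances to match, so they are no baseline for the gene shares. These shares describe letters in a window, and no binding was measured.

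The following windows show where the element lay in higher genes, with TGACGTCA in capitals. Plk2 is a polo-like kinase, Dusp8 a phosphatase of stress kinases and Ell2 a transcription elongation factor, and they had the largest differences among higher genes with an element. Btg2 is shown as a member of the cAMP list, Chgb as a secretory granule protein and Prkar1a as a subunit of protein kinase A.
Plk2 (chr13:110394794-110395093, plus strand): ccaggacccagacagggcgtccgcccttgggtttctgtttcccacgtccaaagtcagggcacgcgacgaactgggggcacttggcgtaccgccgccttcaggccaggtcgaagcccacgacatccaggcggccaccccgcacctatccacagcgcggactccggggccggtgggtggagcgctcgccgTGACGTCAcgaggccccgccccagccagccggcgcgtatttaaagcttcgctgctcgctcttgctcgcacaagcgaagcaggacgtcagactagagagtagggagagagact
Dusp8 (chr7:142095235-142095534, minus strand): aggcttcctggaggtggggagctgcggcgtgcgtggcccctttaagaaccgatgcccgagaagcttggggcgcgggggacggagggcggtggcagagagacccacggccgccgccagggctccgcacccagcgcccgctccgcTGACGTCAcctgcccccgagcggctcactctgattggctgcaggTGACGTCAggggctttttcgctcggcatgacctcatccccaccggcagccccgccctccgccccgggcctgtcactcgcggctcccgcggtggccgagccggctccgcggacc
Ell2 (chr13:75707234-75707533, plus strand): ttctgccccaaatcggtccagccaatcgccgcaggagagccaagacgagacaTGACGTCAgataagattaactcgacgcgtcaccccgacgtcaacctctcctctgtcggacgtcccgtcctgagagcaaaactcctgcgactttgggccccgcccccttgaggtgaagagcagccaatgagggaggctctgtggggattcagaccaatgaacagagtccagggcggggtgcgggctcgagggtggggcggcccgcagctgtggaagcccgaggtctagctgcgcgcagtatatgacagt
Btg2 (chr1:134079106-134079405, minus strand): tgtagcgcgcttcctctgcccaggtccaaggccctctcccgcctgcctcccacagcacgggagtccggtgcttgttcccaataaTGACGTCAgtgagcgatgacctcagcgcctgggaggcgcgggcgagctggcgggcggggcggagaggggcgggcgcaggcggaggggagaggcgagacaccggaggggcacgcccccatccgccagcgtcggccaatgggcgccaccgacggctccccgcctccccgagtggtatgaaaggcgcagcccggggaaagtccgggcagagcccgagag
Chgb (chr2:132781392-132781691, plus strand): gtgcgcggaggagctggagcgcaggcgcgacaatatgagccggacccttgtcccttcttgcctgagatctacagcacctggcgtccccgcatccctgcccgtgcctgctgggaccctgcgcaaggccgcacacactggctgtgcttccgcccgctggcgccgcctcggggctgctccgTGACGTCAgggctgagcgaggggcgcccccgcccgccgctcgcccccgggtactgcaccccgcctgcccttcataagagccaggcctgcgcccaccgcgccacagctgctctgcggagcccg
Prkar1a (chr11:109650699-109650998, plus strand): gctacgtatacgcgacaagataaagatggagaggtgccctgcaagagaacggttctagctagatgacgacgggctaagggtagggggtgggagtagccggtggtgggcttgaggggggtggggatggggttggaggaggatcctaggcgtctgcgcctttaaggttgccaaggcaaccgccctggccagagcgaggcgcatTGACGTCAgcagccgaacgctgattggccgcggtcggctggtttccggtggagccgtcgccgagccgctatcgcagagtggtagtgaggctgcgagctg
The element began 62 bases before the start in Plk2, 198 in Ell2, 166 in Btg2, 72 in Chgb and 49 in Prkar1a. Dusp8 held 2 elements, the first 107 bases before the start.

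Plk2 went from 118 to 838 in knockout and from 199 to 2069 in wild type, Ell2 from 325 to 2003 and from 386 to 1810, and Chgb from 53 to 237 and from 36 to 276. Dusp8 went from 157 to 1010 in knockout and from 176 to 452 in wild type, so that its response was larger in knockout. The window of Nr4a1, printed next with TGACG and CGTCA in capitals, held 4 short forms and no full element.
Nr4a1 (chr15:101266596-101266895, plus strand): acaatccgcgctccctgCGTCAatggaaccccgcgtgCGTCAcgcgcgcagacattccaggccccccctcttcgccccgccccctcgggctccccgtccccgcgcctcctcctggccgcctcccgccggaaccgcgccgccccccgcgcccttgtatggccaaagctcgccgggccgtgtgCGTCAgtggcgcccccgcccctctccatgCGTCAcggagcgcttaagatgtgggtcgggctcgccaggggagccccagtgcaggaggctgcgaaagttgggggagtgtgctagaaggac
Nr4a2 also held 4 short forms, and the window of Pde4d held none.

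Genes called higher in knockout were set beside their wild type response. Of the 388 higher genes, 232 (59.8%) had a wild type response within 2-fold of the knockout one and are called kept. A gene near 2-fold in knockout can be kept with almost no wild type response. A further 33.0% had a response at least 2-fold larger in knockout, and 28 (7.22%) one at least 2-fold smaller. The wild type array was above its own level without hCG for 342 of the 388 (88.1%), while 72.7% of all genes over the floor were below theirs. Of the 388, 182 were also at least 2-fold higher in wild type, which is 46.9% of the knockout list and 44.7% of the 407 wild type genes. With genes chosen in wild type instead, 198 of 407 genes (48.6%) lay within 2-fold, 187 were larger in wild type and 22 larger in knockout. The genotypes share no array in this comparison, and it has no test because each side is 1 array.

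**Figure D2:**
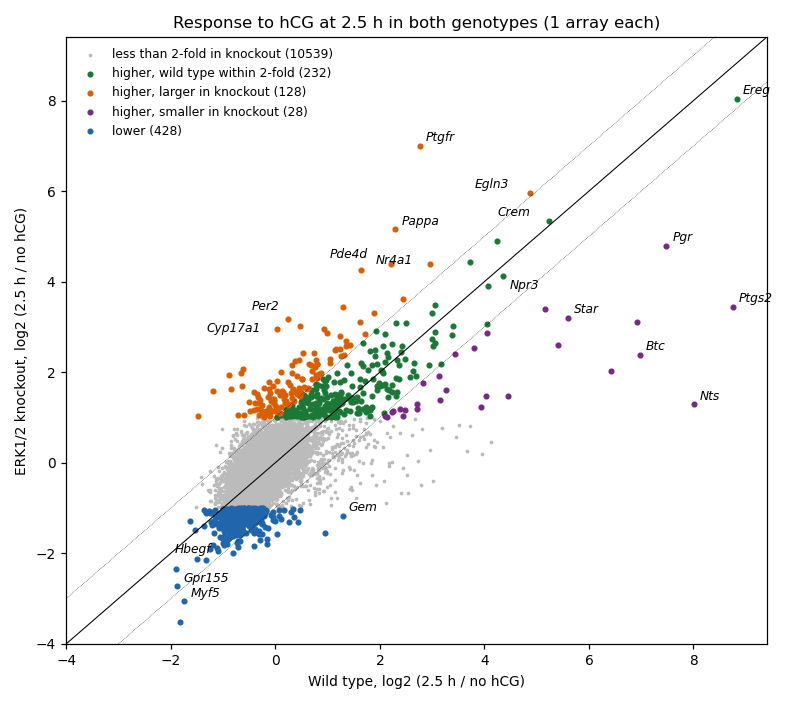
The log2 difference between 2.5 h and no hCG in knockout (vertical axis) against that in wild type (horizontal axis) for 11355 genes, 1 point per gene; the solid line marks equal responses and the dotted lines a 2-fold difference between them. Green points (232 genes) lie between the dotted lines, orange points (33.0% of the higher genes) above them and purple points (28) below them, and the 428 lower genes are blue.

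The kept responses took in signalling genes of several kinds. Ereg (epiregulin), an EGF-like ligand, was at 29, 7644 and 7360 in knockout and at 35, 15945 and 15438 in wild type. Its difference at 2.5 h was 264-fold and 456-fold, both against levels under the floor. Ptger4, a receptor of prostaglandin E2 that raises cAMP, went from 143 to 3094 in knockout and from 136 to 1788 in wild type. Npr3, the clearance receptor of natriuretic peptides, went from 17 to 298 and from 15 to 309, and its second probe set gave a knockout log2 difference of 0.82. Procr, the protein C receptor of the anticoagulant pathway, went from 72 to 1079 and from 118 to 1975, and was at 1943 in knockout at 4 h. Camk2n2, an inhibitor of calcium/calmodulin-dependent kinase II, went from 28 to 838 and from 31 to 584. Both genotypes were high after hCG for each of these genes, and the order of the genotypes differed from gene to gene. The other kept genes with the largest knockout differences were Pde4b, the amino acid transporter gene Slc7a8, Ccdc30, Sfrp4, Osgin2, Mpp7, the ubiquitin ligase gene Rnf128, the ephrin receptor gene Epha4 and Dusp6, at 7.15-fold to 11.2-fold. Kept did not always mean equal levels. Sfrp4, a secreted Wnt modulator, went from 251 to 2141 in knockout and from 2784 to 13712 in wild type. Over the 232 kept genes, 203 were within 2-fold of wild type at 2.5 h.

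Dusp6, a phosphatase that inactivates ERK and is used as a readout of ERK activity, was itself among the kept genes. It was at 26, 186 and 99 in knockout and at 94, 404 and 872 in wild type, so the knockout arrays were lower at every time. Against the wild type array without hCG its log2 difference was 0.98, just under the rule. On a list of 15 ERK readouts over the floor, 3 were called higher in knockout (Dusp6, Spred2 and Spry2, feedback inhibitors) and 2 lower (Phlda1 and Myc), with a median of 0.09. In wild type 7 were at least 2-fold higher (median 0.61). Egr1, the immediate early factor that follows ERK, was at 273 and 259 in knockout and at 2152 and 9767 in wild type. Ier3 was at 540 and 955 in knockout and at 973 and 11105 in wild type.

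Immediate early genes divided in knockout. Of 31 over the floor, 12 were called higher and 2 lower (median 0.82), against 18 and 0 in wild type (median 1.55). Jun, an AP-1 subunit, was at 416, 2363 and 3150 in knockout and at 400, 899 and 517 in wild type. Its start was level and its knockout values after hCG were above both wild type values. Btg1 went from 1947 to 11547 in knockout and from 1983 to 10635 in wild type. Klf4 was higher in both genotypes, from 175 to 1017 and from 129 to 1805. Junb, by contrast, was at 49 and 86 in knockout and at 82 and 1081 in wild type, and Ier5 at 63 and 107 against 117 and 1072. The C/EBP factors Cebpb (523 to 1547) and Cebpa (261 to 573) were called higher in knockout, 2 of 5 in the family. The wild type values were 576 and 1373 for Cebpb and 275 and 1301 for Cebpa.

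Among clock genes, 1 of the 3 called in knockout was nearly level in wild type. Per2, a repressor of the clock, was at 66, 595 and 243 in knockout and at 75, 89 and 66 in wild type. It was 9.02-fold higher at 2.5 h in knockout and 1.19-fold in wild type. A dimmer probe set under the floor gave a log2 difference of 0.65. Cry2 went from 473 to 2220 in knockout and from 435 to 1852 in wild type, and Bhlhe40 from 142 to 632 and from 325 to 1674. Of 15 clock genes these 3 were called higher and 0 lower (median -0.11).

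Over all 11355 genes, 222 had a response larger by at least 2-fold in knockout (1.96%), and these include every gene called higher with a larger response. Ptgfr, the receptor of the luteolytic prostaglandin F2-alpha, was at 40, 5126 and 2394 in knockout and at 276, 1872 and 675 in wild type. Its knockout start was under the floor and 6.90-fold under wild type, and its level at 2.5 h was 2.74-fold above wild type. Its 3 other probe sets over the floor gave log2 differences from 1.20 to 5.98. Pappa, a protease that frees IGF from its binding proteins, was at 33, 1179 and 1508 in knockout and at 158, 775 and 1279 in wild type. Egln3, a prolyl hydroxylase of the oxygen response with a smaller excess of 1.09 on the log2 scale, was at 27, 1682 and 1152 and at 36, 1052 and 1252, and another probe set gave 2.08. No other of 27 genes of hypoxia and glycolysis was called in knockout (median 0.33). Ccrl2, an atypical chemokine receptor, went from 87 to 1656 in knockout and from 160 to 497 in wild type. Enc1, an actin-binding protein gene, went from 1645 to 17950 and from 3652 to 8993. The remaining genes of the 15 with the largest excess were Tulp2, Arrdc4, Rasd1, St8sia1, Mecom, Hspa1b, Zfp949 and Marveld2 besides Per2, Cyp17a1 and Pde4d.

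A larger response can come from a lower start, a higher end or both. Among the higher genes with a larger response in knockout, the knockout array was below wild type without hCG in 103 (80.5%), by at least 2-fold in 17 (13.3%), and above wild type at 2.5 h in 121 (94.5%), by at least 2-fold in 77 (60.2%). In 65 of these genes (50.8%) the genotypes began within 1.5-fold of each other and the knockout array ended at least 2-fold higher. For these genes the median log2 ratio of knockout to wild type was -0.24 at the start and 1.13 at 2.5 h. For all 388 higher genes these medians were -0.20 and 0.33, and for all genes over the floor -0.03 and 0.14. Since the excess is the end difference minus the start difference, the choice of the genes fixes part of these values.

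**Figure D3:**
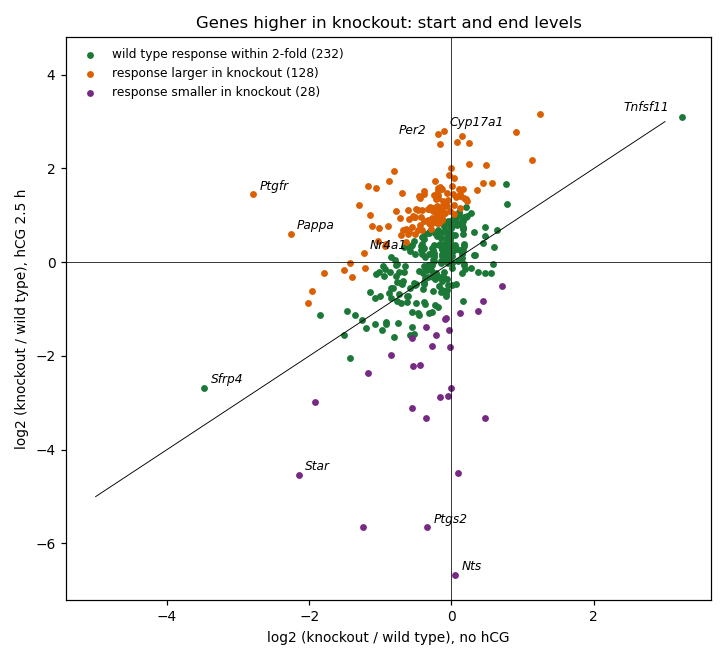
For the 388 genes higher in knockout at 2.5 h, the log2 ratio of knockout to wild type at 2.5 h (vertical axis) against the same ratio without hCG (horizontal axis), 1 point per gene; on the solid line both genotypes responded equally. Orange points (larger in knockout) lie above the line, mostly with a start near 0 or below. Ptgfr and Pappa began far below wild type, and Sfrp4 was below wild type at both times (-3.47 without hCG and -2.68 at 2.5 h).

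Steroid synthesis genes lay above their start in 13 of 13 cases, with 5 called higher and 0 lower (median 0.57, beside -0.03 over all 11355 genes). In wild type the median of the same genes was 0.03 (beside -0.22 over all 11355 genes), with 3 at least 2-fold higher. Their knockout start was lower, with a median log2 ratio of knockout to wild type of -0.24 without hCG. Over all genes over the floor that median was -0.03. Fdx1, the electron donor of the mitochondrial steroid enzymes, went from 5891 to 30615 in knockout and from 9151 to 22681 in wild type. Cyp11a1, which makes pregnenolone, went from 2598 to 9524 in knockout and from 6878 to 11901 in wild type. Scarb1, the HDL receptor that supplies cholesterol esters, went from 4480 to 10994 and from 8106 to 16192. For both genes the knockout array at 2.5 h was still below wild type at that time. Star, which carries cholesterol to the inner mitochondrial membrane, was at 69, 635 and 619 in knockout and at 304, 14678 and 16259 in wild type. It was higher after hCG in both, and the knockout level at 2.5 h was 23.1-fold lower.

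Cyp17a1, the enzyme that makes androgens, was at 1845, 14251 and 13997 in knockout and at 1994, 2037 and 1399 in wild type. It is also a defining gene of theca cells, which lie next to granulosa cells. Of 8 theca markers over the floor, 2 were called higher (Cyp17a1 and Star) and 2 lower. The lower ones were Ptch1, the hedgehog receptor, at 3308 and 1060, and Hpgd, a prostaglandin dehydrogenase, at 4771 and 2090. Hhip, another hedgehog target, was at 74 and 136 and Aldh1a1 at 8950 and 9852. The summed intensity of the 9 theca markers with a probe set was 19619 without hCG and 28757 at 2.5 h in knockout, and 20002 and 27746 in wild type, with Cyp17a1 and Star in the sum. Without these genes, a sum taken after their values were seen, the other 7 gave 17705 and 13871 in knockout and 17704 and 11031 in wild type. The part of theca cells in the difference of Cyp17a1 was not tested. In such cell preparations more cells of a type and more RNA per cell cannot be told apart.

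Of 20 genes of cholesterol synthesis and uptake, 18 were above their start, 5 were called higher and 0 lower (median 0.64, beside -0.03 over all 11355 genes). Dhcr7, which makes cholesterol from its last precursor, went from 465 to 2091 in knockout and from 892 to 2320 in wild type. Cyp51, a sterol demethylase, went from 246 to 800 and from 517 to 1994. The knockout values without hCG were lower, and against the wild type array without hCG the median of the list was -0.036. Outside the lists, Alas1, the first enzyme of heme synthesis, was at 970, 7527 and 9192 in knockout and at 973, 1867 and 1825 in wild type. Acaca, which makes malonyl-CoA for fatty acid synthesis, was at 585 and 1743 in knockout and at 668 and 679 in wild type. Fads2, a fatty acid desaturase, was at 472 and 1519 against 722 and 699.

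Luteal genes had 7 of 20 members called higher and 1 lower in knockout (median 0.36), with 6 and 0 in wild type (median 0.57). The higher ones not yet named were Tnfrsf12a, the TWEAK receptor, at 272 and 1108, and Timp3, a metalloprotease inhibitor, at 237 and 502. The lower one was Lifr, a cytokine receptor, at 2265 and 833, with 2195 and 1121 in wild type.

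**Figure D4:**
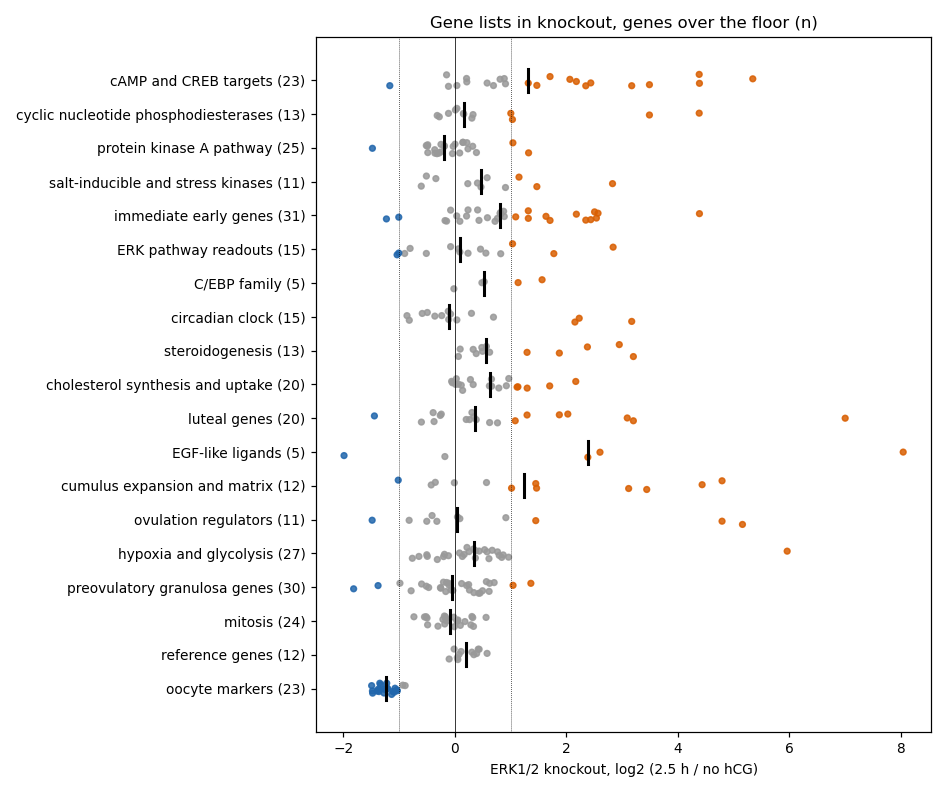
Log2 difference between 2.5 h and no hCG in knockout (horizontal axis) for the members of 19 gene lists over the floor, 1 point per gene and the number of genes in brackets; orange marks genes called higher, blue lower, and black bars the medians. The cAMP targets lie mostly to the right with a median of 1.32, the protein kinase A components around -0.19, and the oocyte markers to the left with a median of -1.24.

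Of 11 ovulation regulators over the floor, 3 were called higher in knockout (Pgr, Pappa and Adamts1) and 1 lower (Adamts5, at 2304 and 824), with a median of 0.05. In wild type 5 of the 11 were higher and 0 lower, with a median of 0.64. Ptgs2, the inducible prostaglandin synthase, was at 15, 163 and 122 in knockout and at 19, 8192 and 11013 in wild type. Pgr, the progesterone receptor, was at 25, 693 and 1322 and at 25, 4476 and 7661. Tnfaip6, which links hyaluronan in the cumulus matrix, was at 25, 217 and 281 and at 18, 2172 and 2897. For Ptgs2, Pgr and Tnfaip6 both genotypes began under the floor and the knockout array after hCG lay between the start and the wild type level. Dimmer probe sets under the floor gave knockout log2 differences of 0.72 for Ptgs2 and 0.97 for Pgr. Of 18 genes of cumulus expansion with a probe set, 12 were over the floor. Ptgs2, Pgr and Tnfaip6 were among the 12 only through their 2.5 h level, which raises the count and the median. Of the 12, 7 were called higher and 1 lower (median 1.23), and in wild type 8 were higher (median 1.88). Adamts1, a protease that cleaves versican, went from 674 to 1843 in knockout and from 1029 to 3058 in wild type. Vcan, versican itself, went from 6425 to 13003 and from 5151 to 11613. Of 9 EGF-like ligands with a probe set, 5 were over the floor. Of these 3 were called higher: Ereg, Btc (49 to 256, against 46 to 5768 in wild type) and Epgn (26 to 158, against 27 to 1146). Ereg, Btc and Epgn began under the floor and were counted only through their 2.5 h level. Hbegf was called lower, at 591 and 149, with 746 and 424 in wild type. Runx1, a transcription factor of the ovulatory response, was at 223 and 168 in knockout and at 256 and 2082 in wild type.

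Oocyte markers over the floor were mostly among the 428 lower genes. Of 23 oocyte markers over the floor, 21 were called lower and all lay below their start (median -1.24), beside 3.77% over all genes. Gdf9, a growth factor of the oocyte, was at 6752, 2655 and 2463 in knockout and at 3500, 2053 and 2145 in wild type. Zp3, a protein of the zona pellucida, was at 4551, 1885 and 1589 and at 2417, 1413 and 1506. The summed intensity of 25 oocyte markers with a probe set was 68125 on the knockout array without hCG, against 37283 on the wild type array without hCG and 22730 to 28865 on the 4 arrays after hCG. The knockout array without hCG was thus the highest of the 6 in these markers, and the difference at 2.5 h starts from it.

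The lower genes other than oocyte markers numbered 407, and the knockout array without hCG was above wild type in 355 of them (87.2%) and at least 1.5-fold above in 202 (49.6%). Over all lower genes the knockout array without hCG was above wild type in 376 of the 428 lower genes (87.9%) and in 43.8% of all genes over the floor, and at least 1.5-fold above in 223 (52.1%) against 4.24% of all. Taking the wild type array without hCG as the start, 272 genes were at least 2-fold lower, of which 111 were among the 428. For the 388 higher genes, 266 were still at least 2-fold higher on that start. A start array that is high lowers the difference by construction, so these shares are a description. The part of oocyte RNA in the lower genes was not tested.

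**Figure D5:**
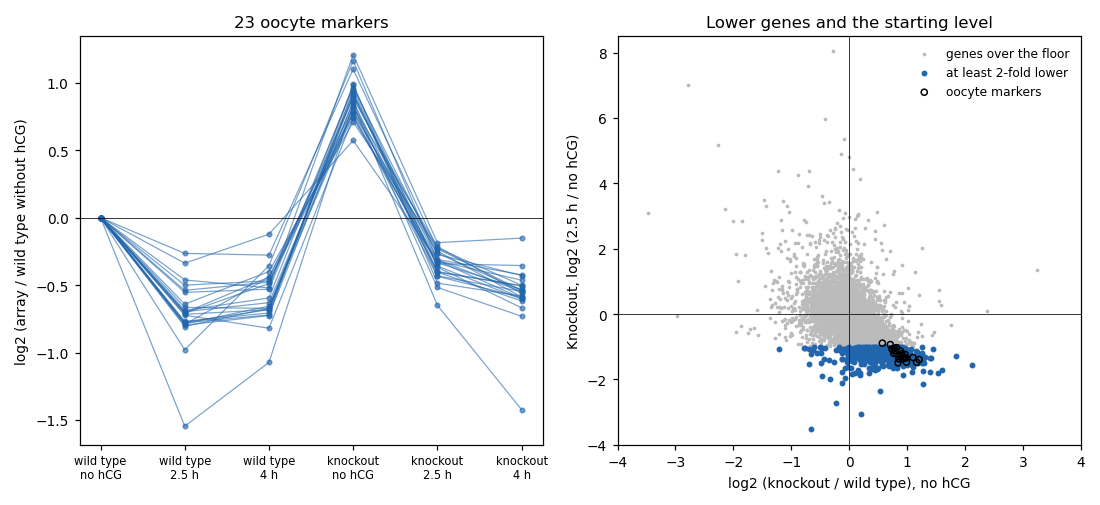
Left, log2 intensity of 23 oocyte markers on each of the 6 arrays relative to wild type without hCG, 1 line per gene; right, the log2 difference at 2.5 h in knockout against the log2 ratio of knockout to wild type without hCG for 11355 genes, with the 428 lower genes in blue and the oocyte markers circled. The markers stand above 0 only on the knockout array without hCG, and 376 of the 428 lower genes lie to the right of 0.

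Genes lower on both starts included regulators of follicle growth and signalling. Gpr155 was at 781, 118 and 93 in knockout and at 915, 248 and 53 in wild type. Myf5, a muscle transcription factor, was at 342, 41 and 40 and at 298, 89 and 63. Tnc, the matrix protein tenascin C, was at 477, 93 and 96 and at 329, 88 and 81, although a dimmer probe set under the floor gave a log2 difference of 0.16. Nr0b1, a repressor of steroidogenic transcription, was at 521, 148 and 129 and at 485, 245 and 120. Esr2, the estrogen receptor of granulosa cells, was at 795 and 306 in knockout and at 690 and 389 in wild type. Pik3r1, the regulatory subunit of PI3 kinase, was at 2581, 717 and 693 in knockout and at 2507, 1889 and 2052 in wild type. Its start was level, and its other 3 probe sets over the floor gave log2 differences from -1.26 to -0.45. Akr1c14, a steroid-reducing enzyme, was at 8640, 2539 and 2078 and at 9470, 4861 and 2194. Bmp2, a growth factor of the TGF-beta family, was at 738 and 253 in knockout and at 1200 and 2320 in wild type. The lower genes were below their start in wild type in 415 of 428 cases (97.0%), against 72.7% of all genes over the floor. Of the 428, 43 were also called lower in wild type, which is 10.05% of the knockout list and 36.4% of the 118 wild type genes, and 44 had a difference at least 2-fold larger in knockout.

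Among the 20 lowest genes, Pramel25, E330016L19Rik, Zc3h6, Caps2, Car3 and Ptprv were less than 2-fold lower when set against the wild type start. Car3, for instance, was at 87 on the knockout array without hCG and at 25 to 30 on the other 5 arrays. The remaining ones not named above were 1110032F04Rik (3606 to 314), Tmprss13, the ubiquitin ligase gene Rnf144b, Insyn2b, Tdrd5, Cxxc4 and 4933431E20Rik, at 3.47-fold to 11.5-fold lower. The largest of these, 1110032F04Rik, was at 5672 and 1609 in wild type, and its other probe set, under the floor, gave -0.51 in knockout.

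Genes of the growing follicle were mostly level in knockout at 2.5 h. Of 30, 2 were called higher (Gata4 and Id2) and 2 lower (Esr2 and Nr0b1), with a median of -0.05 against -0.40 in wild type. The FSH receptor gene Fshr was at 5345 and 4468 in knockout and at 4454 and 2233 in wild type. Hsd17b1, which forms estradiol, was at 12681 and 18764 in knockout and at 13111 and 9121 in wild type. Gata4, a transcription factor of granulosa cells, went from 729 to 1503 in knockout and from 840 to 672 in wild type. Foxo1 was at 13291 and 6715 in knockout, just short of 2-fold, and at 10209 and 5253 in wild type. None of 24 mitosis genes (median -0.08) or 22 DNA replication genes (median 0.01) was called. Of 11 cell cycle inhibitors and cyclins over the floor, Cdkn1a, which encodes p21, went from 584 to 1689, Ccng2 from 2567 to 7372 and Rbl2 was lower, at 283 and 135. Macrophage and leukocyte markers had 0 of 12 called (median 0.25), endothelial markers 0 of 6 (0.17), stromal markers 0 of 7 (-0.32), smooth muscle markers 0 of 6 (-0.50) and surface epithelium markers 0 of 9 (0.35). Of 4 lymphocyte markers 1 was called lower (Ms4a1, at 103 and 38), and Alas2, the red blood cell marker over the floor, was at 362 and 193. None of 7 neutrophil markers reached the floor on either knockout array. Among 12 reference genes 0 were called (median 0.21), and Actb was at 19954 and 19767.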

How the data were processed

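RNA from mouse granulosa cells was labelled from 5 ug of total RNA and hybridised to Affymetrix arrays, per the labels' protocols. The deposited table held 1 intensity per probe set and array, made with RMA in the affy package per the submitters' processing notes (no version is stated). Values in the deposited table ran from 9 to 59425 without decimals, and log2 of each deposited intensity was taken. Quantile normalization in RMA hides a change in total RNA per cell, and rounding gives dim probe sets coarse steps.

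Of 45101 probe sets, 34958 named 1 gene in the platform annotation, 932 several and 9211 none. Of the 34958, 34754 matched a gene table of GRCm38.p6 by gene ID, which changed 0 symbols. For each gene the brightest probe set, by its mean log2 over the 6 arrays, was used. A gene was called when both knockout arrays differed at least 2-fold and the brighter was at 64 or more. Named genes were the 25 largest and 20 smallest differences, the 15 largest kept responses, the 15 largest excesses over wild type, and members of 28 gene lists and 11 marker lists. Some genes of the text fell outside these and were named after their values were seen: Dusp8, Ell2, Chgb, Alas1, Acaca, Fads2 and the genes nearest the 2-fold limit. Members and lists were chosen with earlier results of these data known. The rule of size was tested on simulated data. Alternatives were cyclic loess (limma 3.58.1, R 4.3.3), the mean of all probe sets, the second brightest probe set, floors of 128 or none, 32 added to each intensity, centring on the median, the wild type array without hCG as the start, and limits of 1.5-fold and 4-fold.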

Additional observations from a re-analysis of the deposited data

Results flagged for a closer look

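For 3 genes called in knockout at 2.5 h, the wild type response was at least 2-fold in the opposite direction, and each side was 1 array. Arrdc4, an arrestin-like gene, had a log2 difference of 1.57 in knockout and -1.19 in wild type. Hspa1b, a heat shock gene, had 1.04 in knockout and -1.48 in wild type. Gem, a small GTPase gene, had -1.17 in knockout and 1.29 in wild type. The difference between the genotypes was not tested for these genes. Hspa1b began at 948 in knockout and 2325 in wild type, Arrdc4 at 409 and 715, and Gem at 485 and 498, so the starts differed for the first and second genes and were level for Gem.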

How the results depend on the processing

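No paired analysis was possible because each group held 1 array. By the second brightest probe set, over all genes that have one, 197 genes were higher and 161 lower, with 137 kept and 49 larger in knockout. A second probe set exists for 252 of the 388 higher and 235 of the 428 lower genes. By it 126 of the 252 were again higher and 77 of the 235 again lower. The mean of all probe sets gave 276 lower, and the wild type start 272 lower. A limit of 1.5-fold gave 878 higher and 1453 lower, and one of 4-fold gave 97 and 6. The other alternatives left these 4 counts within 1.5 times. The second probe set reversed Cxxc4 (0.21), Mecom (-0.032), Pde4d (-0.11), Tnc (0.16) and Zc3h6 (0.078). With no floor, the list of EGF-like ligands had a median of 0.00 in place of 2.39. By the second probe set that list gave -1.72, which equals the value of Hbegf, a gene already called lower. Ereg has 1 probe set and drops out there, so the -1.72 cannot be read as a reversal of the list. The wild type start reversed Hspa1b (-0.26), Sfrp4 (-0.38) and the cholesterol median (-0.036). Of the named genes by the 25, 20, 15 and 15 rules, 60 of 60 kept their call with cyclic loess, with 32 added, with centring and with no floor, 59 with the higher floor and 52 when probe sets were averaged. On the wild type start 48 kept it and 10 lost it: Arrdc4 (0.77), St8sia1 (0.93), Tulp2 (0.75), Dusp6 (0.98), Caps2, Car3, E330016L19Rik, Pramel25, Ptprv and Zc3h6. By the second probe set 19 kept it, 10 lost it and 5 reversed. The cause of these changes was not tested. Without replicates, array error cannot be separated from the differences, and values under 64 give only coarse folds.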
